A study of Mus musculus with 20 samples.

Results

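Trp53 and 9 genes of its feedback loop and growth arrest response were followed across MYC-driven mouse liver tumors: Mdm2, Mdm4, Cdkn1a, Ccng1, Zmat3, Btg2, Plk2, Sesn1 and Sesn2. These 10 genes were taken by symbol from the 50559 genes counted, and all 10 were among the 14333 genes expressed highly enough to be tested. The guiding question was how the p53 response genes are expressed when MYC tumors carry FGF19 or its analog, and when the cooperating event is a guide against Trp53 itself.

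RNA was sequenced from 4 groups of 5 C57Bl6J mice, wild type by their labels: Aldafermin+MYC, FGF19+MYC and sgTrp53+MYC tumors, and non treated livers. Every tumor group received MYC under an EF1a promoter by hydrodynamic gene transfer, a rapid tail vein injection that transfects hepatocytes, with a transposase that integrates the plasmids. The mice were females, the labels give no age at sampling, and each tumor came from a different mouse. FGF19+MYC tumors also received human FGF19, a gut hormone that represses bile acid synthesis, and Aldafermin+MYC tumors an analog of it that is changed in the N-terminal part. sgTrp53+MYC tumors instead received a Cas9 plasmid with a guide against Trp53; their treatment label reads none and their group was taken from the titles. The study describes the livers as transfected with a fluorescent protein plasmid, whereas the labels call them non treated. No group analysed here received MYC alone.

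p53, the product of Trp53, is a transcription factor that is held at a low level by the ubiquitin ligase Mdm2 and its partner Mdm4. When stress or an oncogene such as MYC frees it from them, p53 binds a paired response element and activates genes that stop the cell cycle, remove the cell or repair damage. Mdm2 is itself such a target, which closes a negative feedback loop, and Cdkn1a encodes p21, the inhibitor of cyclin-dependent kinases through which much of the arrest is exerted.

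The reads counted on genes numbered 18004977 to 44427184 per library in Aldafermin+MYC and FGF19+MYC tumors and livers, and 54042455 to 66354724 in sgTrp53+MYC tumors. The sgTrp53+MYC libraries were deposited in a table of their own, and 11.1% to 14.6% of their reads were ambiguous between genes, against 3.03% to 6.30% in the other libraries. Reads that were not aligned made up 5.34% to 6.82% in sgTrp53+MYC libraries, against 15.3% to 34.0% in the other libraries. A difference between the tables and a difference between these tumors and any other group cannot be told apart. One library of this group stood apart. sgTrp53+MYC replicate 2 had a summed level of 312 CPM (read counts scaled to library size) over 4 cholangiocyte markers, where the median of its group was 3.15. The same library had 81.0 CPM of Cdkn2a, where the other 4 libraries had 0.0921 to 0.790 CPM. The products of Cdkn2a include Arf, an inhibitor of Mdm2, and gene-level counts do not tell its transcripts apart. Cdkn2a was singled out after its values were seen. Hepatocyte markers were detected in all groups, 6 of 6 above 1 CPM, but their sum ran from 2514 to 27650 CPM over the tumors, against 174300 to 219600 CPM in livers. In bulk RNA, fewer cells of a type and less RNA per cell cannot be told apart.

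The p53 response element is a pair of 10-base half-sites, and the members were searched for its consensus, without spacer, within 3000 bases on either side of the canonical transcript start (GENCODE M39 on GRCm39). The consensus is its own reverse complement, so that a single search covers both strands, and the central C and G of each half-site were required. The best matches of Zmat3, Cdkn1a, Ccng1 and Plk2 are printed because they were the closest among the members, and that of Mdm2 because this gene closes the feedback loop. Each is written on the strand of its gene, negative positions being upstream, with the 20 bases of the match in capitals and 5 bases of context on each side.
Cdkn1a, chr17:29309902-29309921, position -2826 from the start: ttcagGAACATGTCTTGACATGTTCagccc
Mdm2, chr10:117546010-117546029, position 644 from the start: gggctGGTCAAGTTGGGACACGTCCggcgt
Zmat3, chr3:32418480-32418499, position 1419 from the start: gtgagAAACAAGCCCAGGCATGTCTtggga
Ccng1, chr11:40646289-40646308, position -160 from the start: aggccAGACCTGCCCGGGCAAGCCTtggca
Ccng1, chr11:40645763-40645782, position 366 from the start: ccggaACGCAAGCCCGGGCTAGTCTgcgcc
Plk2, chr13:110529416-110529435, position -1589 from the start: gtgaaCAACATGCCCGGGCTTGCATtgaga
Plk2, chr13:110530928-110530947, position -77 from the start: atggcGATCTTGCTTAGACTTGTTGcgtac

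Zmat3 matched the consensus at all 20 positions, in sequence that is intronic to its canonical transcript and exonic to another. A match that complete was present near 0.106% of 21767 protein-coding starts. Cdkn1a and both Ccng1 matches reached 19 positions, a score that 0.896% of starts reached, and both Plk2 matches 18, which 5.86% reached. The Ccng1 match downstream of the start lay in an intron, and those of Cdkn1a and Plk2 lay outside the annotated gene. The Mdm2 sequence, with 17 matched positions, lay outside the exons of the canonical transcript and in an exon of another transcript. Matches of 17 were near 25.8% of all starts and matches of 16 near 62%, so that the best matches of Trp53, Mdm4 and Sesn1 (17 each) and of Btg2 and Sesn2 (16 each) were as close as those of many genes. These are matches of letters, and binding was not measured.

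Trp53, on chromosome 11 (69469669 to 69482701, plus strand), was about 3-fold lower in sgTrp53+MYC tumors than in the other tumors and remained detectable in each of them. In Aldafermin+MYC replicates 1 to 5 its level was 176, 159, 129, 135 and 90.8 CPM, and in FGF19+MYC replicates it was 110, 155, 148, 148 and 137 CPM. In sgTrp53+MYC replicates it was 18.7, 79.9, 35.4, 51.0 and 48.8 CPM. In livers it was 33.4, 36.4, 34.5, 30.9 and 28.8 CPM. Every library of the FGF19+MYC and Aldafermin+MYC groups was above every sgTrp53+MYC and liver library, whereas sgTrp53+MYC libraries lay on both sides of the livers. The log2 fold change of Trp53 over sgTrp53+MYC tumors was 1.56 (standard error, SE, 0.26, adjusted p = 0.000656) in Aldafermin+MYC and 1.58 (SE 0.26, adjusted p = 0.000615) in FGF19+MYC tumors, by edgeR's quasi-likelihood test with Benjamini-Hochberg adjustment over all 14333 genes, as are all adjusted p-values of single genes given here. Without sgTrp53+MYC replicate 2, the highest of its group, these values were 1.84 and 1.86. Gene-level counts do not show whether the transcripts carry an edit.

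Relative to livers, Trp53 was higher by a log2 fold change of 2.07 (SE 0.27, adjusted p = 1.19e-06) in Aldafermin+MYC and 2.09 (SE 0.27, adjusted p = 1.1e-06) in FGF19+MYC tumors. In sgTrp53+MYC tumors the difference from livers was 0.51 (SE 0.26, adjusted p = 0.0831) and did not pass the threshold. It passed with library totals alone (1.41, adjusted p = 0.000189), without the filter on low counts (0.80, adjusted p = 0.0131) and with gene GC content and length corrected for (0.52, adjusted p = 0.0469). Without sgTrp53+MYC replicate 1, which had the least Trp53, it was 0.72 (adjusted p = 0.0039), and without replicate 2 it was 0.23 (adjusted p = 0.379). The SD of log2 CPM of Trp53 was 0.77 over sgTrp53+MYC libraries, against 0.20 in FGF19+MYC, 0.37 in Aldafermin+MYC and 0.13 in livers. Its processed pseudogene Trp53-ps took few reads, 69 in all sgTrp53+MYC libraries where Trp53 had 16844.

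**Figure D1:**
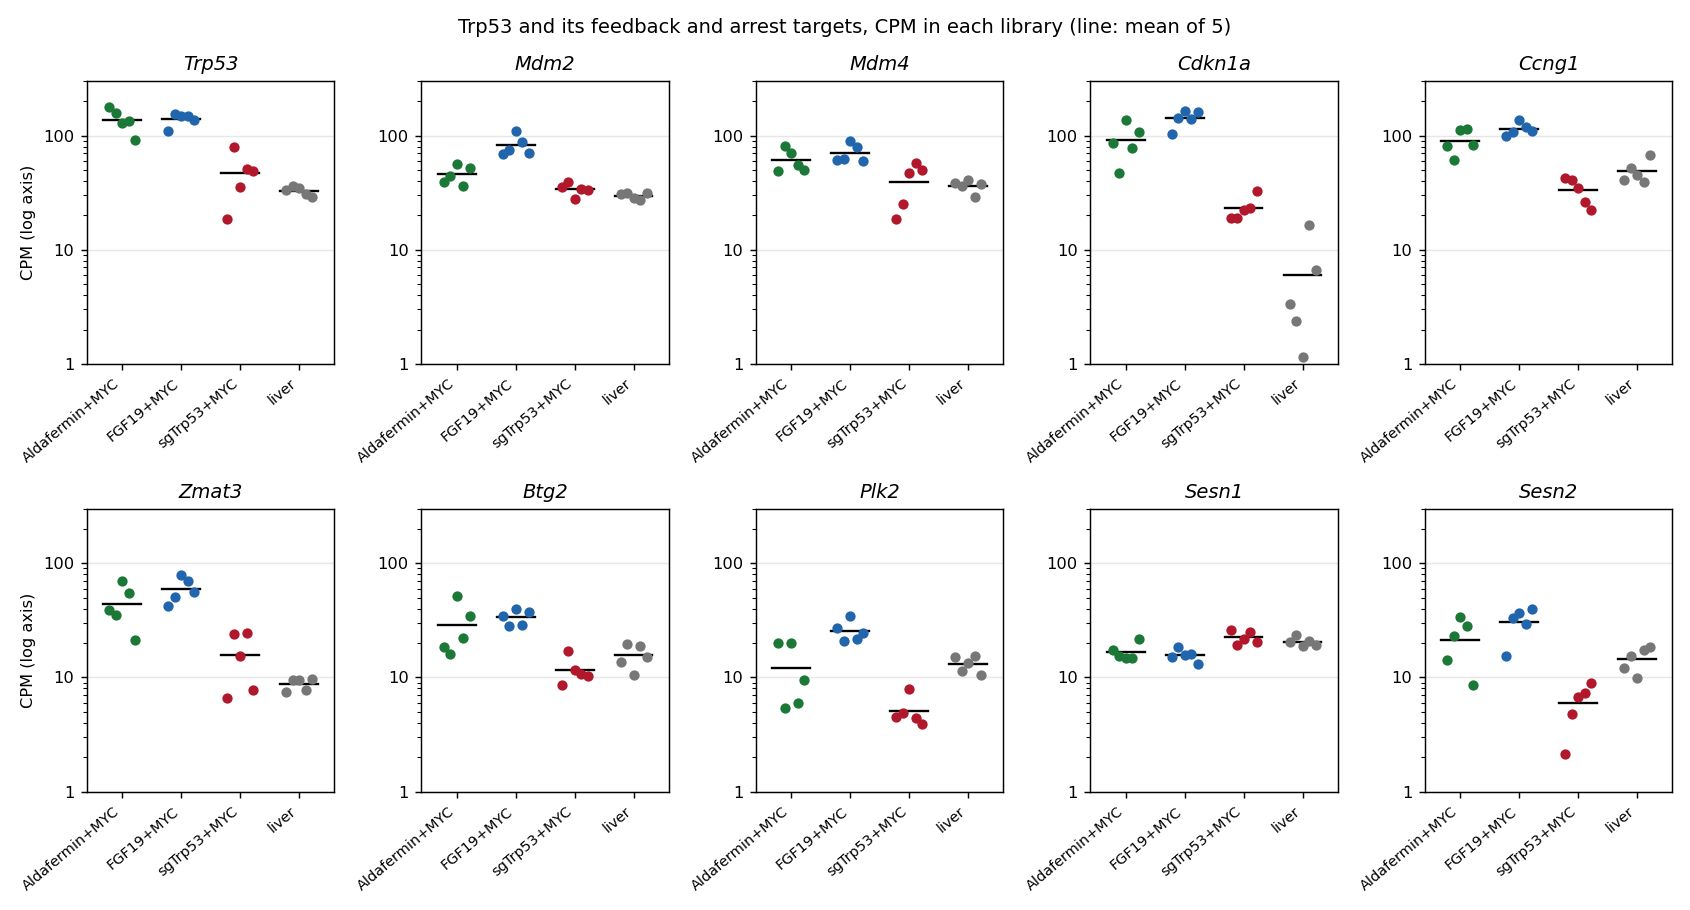
CPM on a log axis of the 10 members in each library, 1 panel per gene, with 5 points per group in replicate order and a line at the mean. Trp53 and Cdkn1a of both FGF groups lie above all sgTrp53+MYC points, Sesn1 lies lower in them, and the sgTrp53+MYC points of Trp53 spread from 18.7 to 79.9 CPM.

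Of the members that hold p53 back, Mdm2 was highest in FGF19+MYC tumors, whose libraries did not overlap with those of any other group. Mdm2 (chromosome 10, 117524780 to 117546730, minus strand) had 68.9, 74.3, 109, 88.2 and 70.9 CPM in FGF19+MYC replicates 1 to 5 and 39.1, 44.4, 56.4, 36.4 and 52.0 CPM in Aldafermin+MYC replicates. It had 35.1, 39.3, 27.8, 34.0 and 33.5 CPM in sgTrp53+MYC tumors and 30.6, 31.5, 28.2, 27.2 and 31.4 CPM in livers. The FGF19+MYC tumors were above every other library, the Aldafermin+MYC tumors came next in mean level but overlapped with sgTrp53+MYC tumors, which overlapped with livers. Over sgTrp53+MYC tumors, Mdm2 was higher by 1.28 (SE 0.15, adjusted p = 3.51e-05) in FGF19+MYC and by 0.43 (SE 0.14, adjusted p = 0.046) in Aldafermin+MYC tumors on the log2 scale. The second of these calls was fragile: it was lost without any 1 of 7 libraries, Aldafermin+MYC replicates 2, 3 and 5 and sgTrp53+MYC replicates 1, 3, 4 and 5, at log2 fold changes of 0.32 to 0.44 and adjusted p-values of 0.0502 to 0.145. In all it was lost in 12 of 19 alternatives. Among these were library totals alone (adjusted p = 0.0787), median ratio size factors (adjusted p = 0.0691) and no filter on low counts (adjusted p = 0.223).

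Mdm4, a relative of Mdm2 that masks the activation domain of p53, differed from sgTrp53+MYC tumors by less than Mdm2 in FGF19+MYC tumors and by more than Mdm2 in Aldafermin+MYC tumors, where it did not pass the threshold. Its mean level was 61.0 ± 14.4 CPM in Aldafermin+MYC, 70.5 ± 13.7 CPM in FGF19+MYC, 39.5 ± 16.8 CPM in sgTrp53+MYC tumors and 36.4 ± 4.38 CPM in livers (SD, n = 5 each). The sgTrp53+MYC mean hides a split, with 18.7, 24.95, 46.6, 57.5 and 49.9 CPM in replicates 1 to 5. Replicates 1 and 2 lay below every liver and replicates 3 to 5 above every liver (29.0 to 40.4 CPM). FGF19+MYC tumors, at 59.8 to 90.4 CPM, did not overlap with sgTrp53+MYC tumors, at 18.7 to 57.5 CPM, and were higher by 0.83 on the log2 scale (SE 0.25, adjusted p = 0.028). That call was lost without FGF19+MYC replicate 3 (0.73, adjusted p = 0.0763), FGF19+MYC replicate 4 (0.79, adjusted p = 0.058) or sgTrp53+MYC replicate 2 (0.70, adjusted p = 0.0674). It was also lost with library totals alone (adjusted p = 0.0632), without the filter on low counts (adjusted p = 0.0693) and with just the compared groups in the model (adjusted p = 0.0872). In Aldafermin+MYC tumors the difference was 0.63 (SE 0.25, adjusted p = 0.085), and it passed without sgTrp53+MYC replicate 4 (0.80, adjusted p = 0.0355).

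Cdkn1a, the gene of p21 (chromosome 17, 29309936 to 29319701, plus strand), spanned the widest range of the members. It had 104, 143, 164, 139 and 162 CPM in FGF19+MYC replicates 1 to 5 and 86.4, 47.3, 138, 77.0 and 107 CPM in Aldafermin+MYC replicates. In sgTrp53+MYC tumors it had 19.0, 18.8, 22.5, 23.0 and 32.8 CPM, and in livers 3.37, 2.38, 1.15, 16.6 and 6.69 CPM. No sgTrp53+MYC library reached the lowest library of either FGF group, and every sgTrp53+MYC library exceeded every liver. Over sgTrp53+MYC tumors Cdkn1a was 6.13-fold higher in FGF19+MYC tumors (log2 fold change 2.62, SE 0.48, adjusted p = 0.00127) and 3.93-fold higher in Aldafermin+MYC tumors (1.97, SE 0.47, adjusted p = 0.0068). Over livers, Cdkn1a of sgTrp53+MYC tumors was higher by 1.96 (SE 0.48, adjusted p = 0.00118), that of FGF19+MYC tumors by 4.58 and that of Aldafermin+MYC tumors by 3.93. Liver replicate 4, the highest liver, set the size of these values: without it they were 2.76, 5.37 and 4.73.

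Among the other arrest genes, Ccng1, which encodes cyclin G1, and Zmat3, a zinc finger protein that binds RNA, were higher in both FGF groups than in sgTrp53+MYC tumors. Ccng1 had 99.3, 107, 137, 119 and 109 CPM in FGF19+MYC and 81.2, 60.5, 112, 115 and 82.5 CPM in Aldafermin+MYC replicates, against 42.1, 41.0, 34.7, 26.3 and 22.5 CPM in sgTrp53+MYC tumors. Neither FGF group overlapped with the sgTrp53+MYC tumors, and the log2 fold changes were 1.78 (SE 0.21, adjusted p = 3.96e-05) and 1.44 (SE 0.21, adjusted p = 0.000186). Livers, at 39.4 to 68.1 CPM, lay between the FGF groups and the sgTrp53+MYC tumors in mean level but overlapped with the Aldafermin+MYC and sgTrp53+MYC libraries. Ccng1 was lower in sgTrp53+MYC tumors than in livers by a log2 fold change of -0.56 (SE 0.20, adjusted p = 0.0196), a call that was lost without liver replicate 5 (-0.42, adjusted p = 0.0703), sgTrp53+MYC replicate 4 (-0.48, adjusted p = 0.0536) or sgTrp53+MYC replicate 5 (-0.44, adjusted p = 0.0602).

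Zmat3 had 42.1, 50.5, 78.1, 69.6 and 56.5 CPM in FGF19+MYC tumors and 38.6, 34.9, 70.2, 55.3 and 21.3 CPM in Aldafermin+MYC tumors. In sgTrp53+MYC tumors it had 6.57, 24.2, 15.4, 24.4 and 7.78 CPM, and in livers 7.39 to 9.72 CPM. Only Aldafermin+MYC replicate 5 fell into the range of the sgTrp53+MYC tumors, whose libraries themselves spread below and above the livers. Zmat3 was higher over sgTrp53+MYC tumors by 1.92 (SE 0.35, adjusted p = 0.0012) in FGF19+MYC and by 1.49 (SE 0.34, adjusted p = 0.00596) in Aldafermin+MYC tumors on the log2 scale. Its excess in sgTrp53+MYC tumors over livers (0.83, SE 0.34, adjusted p = 0.0378) was lost without any 1 of 8 libraries, all 5 livers and sgTrp53+MYC replicates 2, 3 and 4, at 0.62 to 0.86 and adjusted p-values of 0.0517 to 0.124.

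Btg2, an antiproliferative gene that acts on mRNA deadenylation, and Plk2, a polo-like kinase induced by stress, differed most clearly in FGF19+MYC tumors. Btg2 had 28.0 to 39.5 CPM in FGF19+MYC and 16.1 to 51.6 CPM in Aldafermin+MYC tumors, against 8.62 to 16.9 CPM in sgTrp53+MYC tumors and 10.6 to 19.6 CPM in livers. Its log2 fold change over sgTrp53+MYC tumors was 1.53 (SE 0.28, adjusted p = 0.0012) in FGF19+MYC and 1.29 (SE 0.28, adjusted p = 0.0035) in Aldafermin+MYC tumors. Plk2 had 26.9, 20.9, 34.5, 21.5 and 24.4 CPM in FGF19+MYC replicates, 19.9, 5.38, 19.98, 5.92 and 9.57 CPM in Aldafermin+MYC replicates and 4.53, 4.90, 7.95, 4.37 and 3.91 CPM in sgTrp53+MYC replicates. The Aldafermin+MYC tumors reached from the level of sgTrp53+MYC tumors to just under that of FGF19+MYC tumors. Over sgTrp53+MYC tumors the log2 fold change of Plk2 was 2.32 (SE 0.33, adjusted p = 0.000196) in FGF19+MYC and 1.24 (SE 0.32, adjusted p = 0.0125) in Aldafermin+MYC tumors. In livers Plk2 had 10.4 to 15.3 CPM, above every sgTrp53+MYC library (log2 fold change of sgTrp53+MYC over liver -1.35, SE 0.33, adjusted p = 0.00115).

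The sestrins, stress proteins that restrain mTORC1 signalling, went apart. Sesn2 had 15.3, 32.9, 36.4, 29.3 and 39.5 CPM in FGF19+MYC and 14.3, 23.1, 33.6, 28.0 and 8.50 CPM in Aldafermin+MYC tumors, against 2.14, 4.76, 6.68, 7.29 and 8.87 CPM in sgTrp53+MYC tumors and 9.81 to 18.6 CPM in livers. The sgTrp53+MYC tumors were below every liver and every FGF19+MYC tumor. Sesn2 was higher over sgTrp53+MYC tumors by 2.37 (SE 0.38, adjusted p = 0.000482) in FGF19+MYC and by 1.85 (SE 0.38, adjusted p = 0.00243) in Aldafermin+MYC tumors on the log2 scale, and lower in sgTrp53+MYC tumors than in livers (-1.30, SE 0.37, adjusted p = 0.00425).

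Sesn1 was the member that was lower in the FGF groups than in sgTrp53+MYC tumors. It had 15.2, 18.6, 15.8, 15.99 and 13 CPM in FGF19+MYC, 17.3, 15.3, 14.7, 14.7 and 21.8 CPM in Aldafermin+MYC and 26.1, 19.2, 21.7, 25.0 and 20.4 CPM in sgTrp53+MYC tumors, with 18.8 to 23.3 CPM in livers. FGF19+MYC tumors did not overlap with sgTrp53+MYC tumors (log2 fold change -0.52, SE 0.14, adjusted p = 0.0159), nor with livers (-0.39, SE 0.14, adjusted p = 0.0185). The difference from livers was lost without FGF19+MYC replicate 5 (-0.32, adjusted p = 0.0559). In Aldafermin+MYC tumors the difference from sgTrp53+MYC tumors was -0.43 (SE 0.14, adjusted p = 0.038), and it was lost without any 1 of 7 libraries, Aldafermin+MYC replicates 1 to 4 and sgTrp53+MYC replicates 1, 3 and 4, at -0.44 to -0.37 and adjusted p-values of 0.0538 to 0.0973.

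Counted over the 10 members, 9 were higher and 1 lower in FGF19+MYC than in sgTrp53+MYC tumors, where 7.97% of all tested genes were called higher and 7.78% lower. None of the 10 overlapped between these groups, 9 of them higher and Sesn1 lower, against 5.45% of all genes in each direction. In Aldafermin+MYC tumors 8 members were higher (10.2% of all genes) and 1 lower (7.53% of all genes) than in sgTrp53+MYC tumors. Trp53, Cdkn1a and Ccng1 did not overlap, against 5.61% of all genes that were higher without overlap, and 0 members were lower without overlap (4.14% of all genes). The median log2 fold change of the members was 1.68 in FGF19+MYC and 1.36 in Aldafermin+MYC tumors, where that of all genes was -0.03 and -0.01. Both comparisons share the sgTrp53+MYC libraries. Without sgTrp53+MYC replicate 2, 8 members were higher and 1 lower in each comparison. Over all tested genes, 2327 were then called in Aldafermin+MYC and 1997 in FGF19+MYC tumors. When the model held just the compared groups, the Aldafermin+MYC count dropped to 5 higher and 0 lower, Mdm2, Zmat3, Plk2 and Sesn1 being lost. Over all tested genes 1076 were called in that model, in place of 2534.

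**Figure D2:**
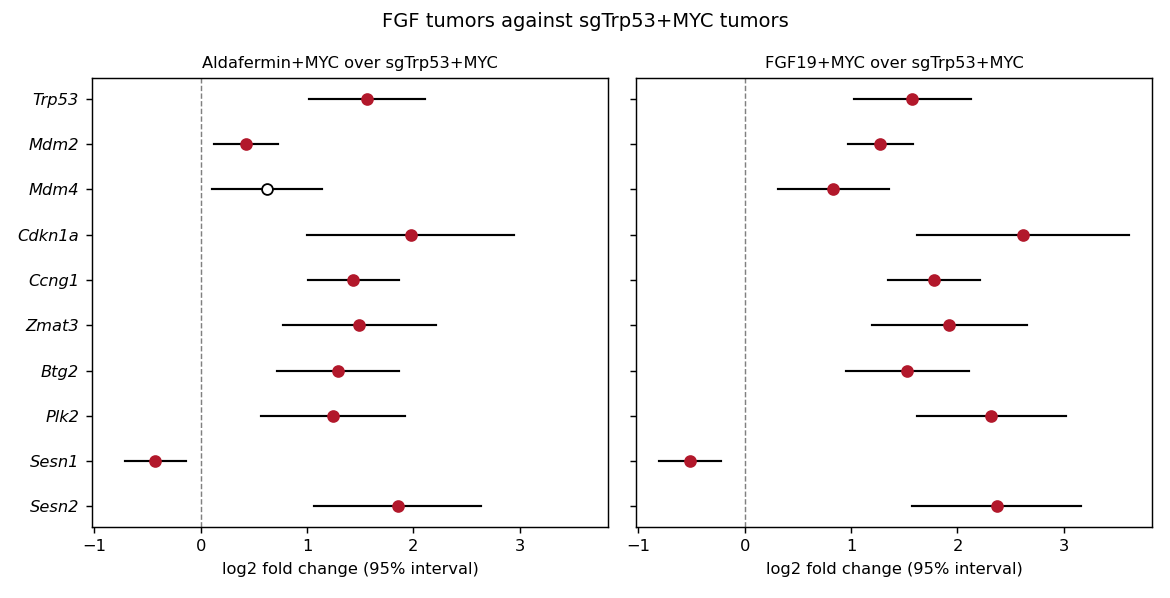
Log2 fold change with its 95% interval of each member in Aldafermin+MYC (left) and FGF19+MYC (right) tumors over sgTrp53+MYC tumors, filled where the adjusted p passed the threshold. All members but Sesn1 lie to the right of 0, with Cdkn1a at 1.97 and 2.62.

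Markers of cell types also moved with these comparisons. The summed level of 5 macrophage markers was 108 to 217 CPM in FGF19+MYC tumors, above the 55.3 to 100.2 CPM of sgTrp53+MYC tumors, and 82.8 to 304 CPM in Aldafermin+MYC tumors, with all 5 markers above 1 CPM in each group. The hepatocyte sum had a median of 12580 CPM in FGF19+MYC, 9586 CPM in Aldafermin+MYC and 5398 CPM in sgTrp53+MYC tumors, with overlapping ranges. That of 5 endothelial markers had medians of 141, 82.3 and 75.2 CPM, also with overlap. The sum of 3 B cell markers, each under 1 CPM on average, was 0.449 to 1.23 CPM in FGF19+MYC and 0.0980 to 0.369 CPM in sgTrp53+MYC tumors. The part of these cells in the differences of the members was not tested.

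The sgTrp53+MYC libraries had more ambiguous reads, which arise where genes overlap, and the overlaps of the members differ. In the GENCODE annotation 4 members share no exon base with another gene: Mdm4, Zmat3, Plk2 and Sesn2. Over sgTrp53+MYC tumors, all 4 were called higher in FGF19+MYC tumors (7.97% of all tested genes) and 3 of them in Aldafermin+MYC tumors (10.2% of all tested genes), where Mdm4 was not (0.63, adjusted p = 0.085). Reads were counted on the RefSeq annotation, in which the overlaps of the members were not examined. The other 6 share 2.59% to 14.3% of their exon bases with a gene on the opposite strand, 5.68% for Trp53 (with Wrap53 and an lncRNA) and 10.9% for Sesn1 (with Cep57l1). The kit was stranded, but whether the counting used strand is not given in the sources used here, and the part of these overlaps in the differences was not tested.

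Between the FGF groups, which were counted in the same table, no member passed the threshold. In this comparison 0 of 10 members and 0% of all tested genes were called by edgeR's quasi-likelihood test, while 2 members, Mdm2 and Plk2, and 1048 of 14333 genes had an unadjusted p under 0.05. DESeq2 called 1 member, Mdm2, and 96 genes in all. Mdm2 was 1.80-fold lower in Aldafermin+MYC than in FGF19+MYC tumors (log2 fold change -0.85, 95% interval -1.15 to -0.55, adjusted p = 0.0595), without overlap between the groups. Plk2 was 2.11-fold lower (-1.08, 95% interval -1.75 to -0.40, adjusted p = 0.347), also without overlap. Such separation with lower values in Aldafermin+MYC tumors was found in 0.391% of all genes. Mdm2 lay close to the threshold, and without Aldafermin+MYC replicate 4 its value was -0.78 (adjusted p = 0.0401).

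For the other members the intervals show what the data allow, not that FGF19 and its analog act alike. Trp53 differed by -0.02 (95% interval -0.55 to 0.52), Sesn1 by 0.09 (-0.20 to 0.38), Mdm4 by -0.21 (-0.72 to 0.31) and Btg2 by -0.24 (-0.80 to 0.33). The intervals were wider for Cdkn1a (-0.64, -1.59 to 0.30), Sesn2 (-0.52, -1.28 to 0.24) and Zmat3 (-0.43, -1.14 to 0.28), and that of Ccng1 ran from -0.77 to 0.08 around -0.34. The median of the 10 members was -0.39, and that of all genes 0.02. Aldafermin+MYC libraries also varied more: the SD of log2 CPM was larger than in FGF19+MYC libraries for 9 of 10 members and for 64.8% of all tested genes. Aldafermin+MYC replicate 3 had the highest Mdm2, Cdkn1a, Zmat3, Btg2, Plk2 and Sesn2 of its group. That library also had the highest sums of stellate cell and fibroblast markers (1491 CPM, group median 299), of macrophage markers (304 CPM, group median 126) and of endothelial markers (173 CPM, group median 82.3), and the part of these cells in its values was not tested. Without it, 0 members were called between the FGF groups, and 7 were called higher and 0 lower over sgTrp53+MYC tumors. Over all tested genes, 0 and 1786 were then called in either direction in these 2 comparisons.

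**Figure D3:**
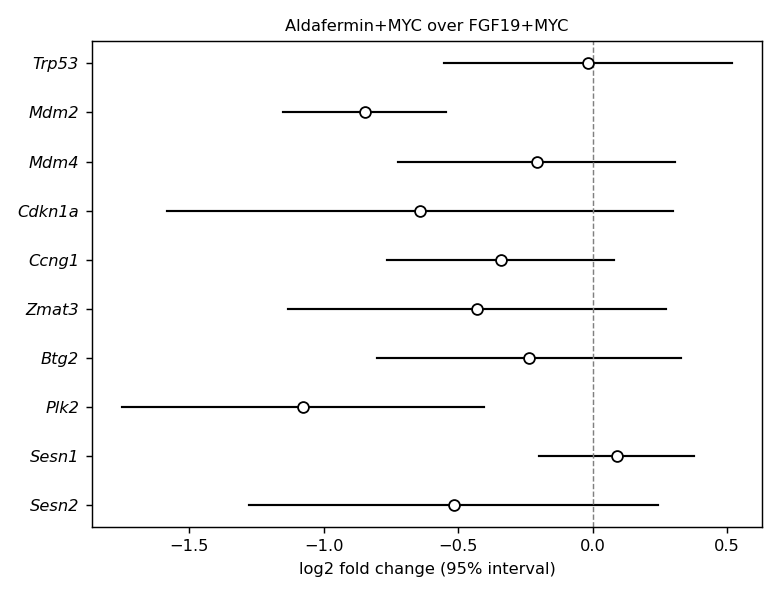
Log2 fold change of each member in Aldafermin+MYC over FGF19+MYC tumors with its 95% interval, all open because none passed the threshold. The intervals of Mdm2 and Plk2 lie below 0 and the other 8 include it.

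Relative to livers, most members were higher in both FGF groups, as were many genes. In FGF19+MYC tumors 9 members were higher and 1 lower, where 36.9% of all tested genes were higher and 32.9% lower (69.7% in either direction), and 8 were higher and 1 lower without overlap (32.4% and 30.1% of all genes). In Aldafermin+MYC tumors 7 were higher and 0 lower, where 38.4% of all genes were higher and 31.9% lower (70.3% in either direction), and 5 were higher and 0 lower without overlap (31.3% and 27.5% of all genes). Zmat3 was 6.74-fold higher in FGF19+MYC and 5.00-fold higher in Aldafermin+MYC tumors than in livers, second to Cdkn1a. Plk2 was higher in FGF19+MYC tumors (0.97, SE 0.32, adjusted p = 0.0116), while in Aldafermin+MYC tumors its value was -0.10 (SE 0.32, adjusted p = 0.788). In sgTrp53+MYC tumors Cdkn1a and Zmat3 were higher than in livers and Ccng1, Plk2 and Sesn2 lower, 2 and 3 members where 36.9% and 33% of all genes were called (69.9% in either direction). Of these 5 members, Cdkn1a did not overlap upwards (28.8% of all genes) and Plk2 and Sesn2 did not overlap downwards (27.4% of all genes).

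Some directions and calls against livers depended on the scaling. With library totals alone in place of TMM factors, the median of all genes moved by 0.85 (both FGF groups) and 0.89 (sgTrp53+MYC) on the log2 scale, and the share of higher calls rose from 54.6% to 78.2% in Aldafermin+MYC, from 52.9% to 77.3% in FGF19+MYC and from 52.8% to 77.9% in sgTrp53+MYC tumors. Under that scaling Sesn1 turned to 0.54 in Aldafermin+MYC and 0.47 in FGF19+MYC tumors and Ccng1 to 0.32 in sgTrp53+MYC tumors. The members called were then 9 higher and 0 lower in Aldafermin+MYC, 10 and 0 in FGF19+MYC and 6 and 0 in sgTrp53+MYC tumors. Of the 14333 tested genes, 11023, 10828 and 10957 were called in either direction in these groups under that scaling. The 78.2%, 77.3% and 77.9% given above are the higher shares of these called genes. Over livers, sgTrp53+MYC tumors gained Trp53 (1.41), Mdm2 (1.06), Mdm4 (1.02) and Sesn1 (1.01), and lost Ccng1, Plk2 (-0.44, adjusted p = 0.236) and Sesn2 (-0.38, adjusted p = 0.394). Trp53, Mdm2, Mdm4, Cdkn1a, Ccng1, Zmat3 and Btg2 kept their direction and their calls in both FGF groups. Without the filter on low counts, 5 members were higher and 2 lower in sgTrp53+MYC tumors than in livers. In that setting 12176 genes of a larger tested set were called in either direction. The hepatocyte marker sums, which were higher in every liver than in any tumor, moved with these comparisons, and their part was not tested.

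**Figure D4:**
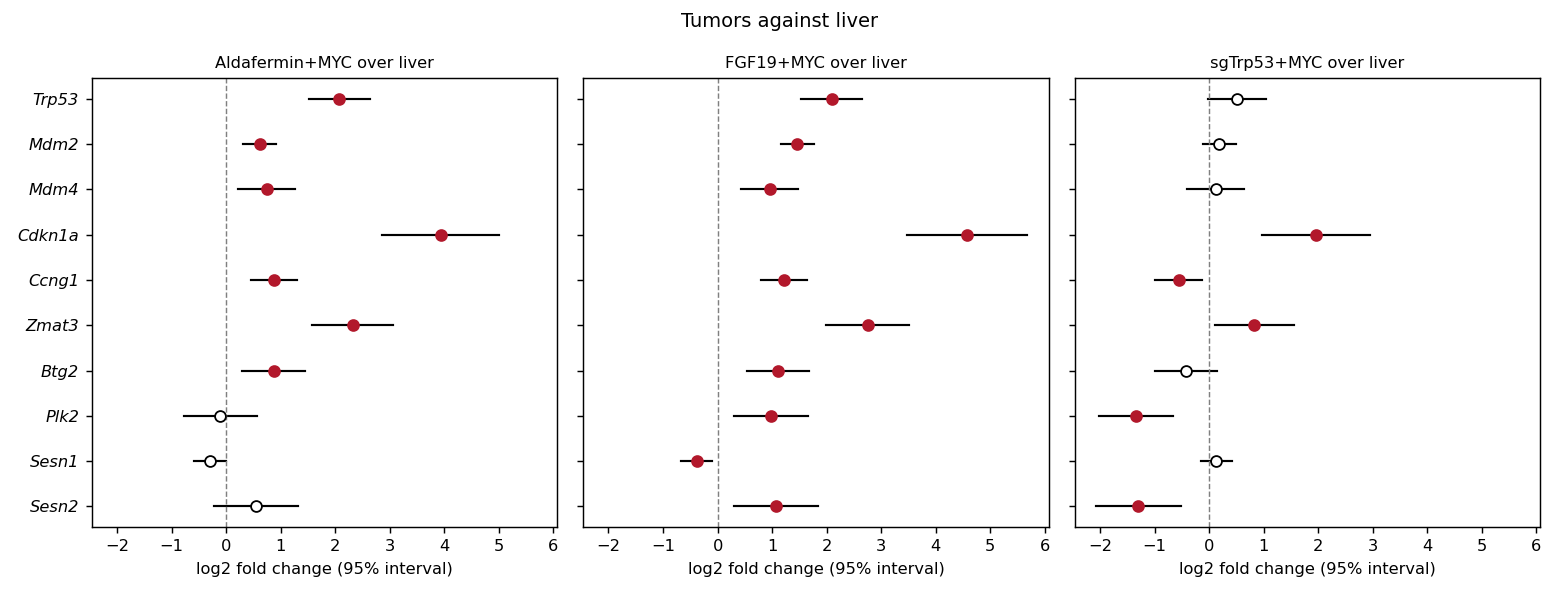
Log2 fold change with its 95% interval of each member in the 3 tumor groups over livers, filled where the adjusted p passed the threshold. Cdkn1a lies farthest to the right in all 3 panels, and the called values left of 0 are Sesn1 in FGF19+MYC and Ccng1, Plk2 and Sesn2 in sgTrp53+MYC tumors.

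Ratios of counts within a library do not depend on the scaling, and were compared for Mdm2 and Cdkn1a over Trp53. With a library left out, p-values were not adjusted, and a ratio result is called lost where its unadjusted p was above 0.05. The Mdm2 to Trp53 ratio was 0.222, 0.280, 0.437, 0.269 and 0.572 in Aldafermin+MYC replicates, 0.629, 0.480, 0.734, 0.595 and 0.517 in FGF19+MYC replicates, 1.87, 0.492, 0.786, 0.666 and 0.685 in sgTrp53+MYC replicates and 0.819 to 1.09 in livers. Its mean was lowest in Aldafermin+MYC tumors, whose libraries overlapped with FGF19+MYC and sgTrp53+MYC tumors, and both FGF groups lay below all livers. The geometric mean was 0.334, 0.584, 0.801 and 0.910 in these groups. Both FGF groups differed from livers (two-sided exact permutation over libraries, p = 0.00794, which no split of 5 against 5 can go below, adjusted p = 0.0317 over 12 tests). Aldafermin+MYC tumors were 1.75-fold below FGF19+MYC tumors (exact permutation test, p = 0.0317, adjusted p = 0.0476), and this was lost without FGF19+MYC replicate 1, 3 or 4 (log2 differences of -0.78, -0.72 and -0.80, exact permutation p = 0.0635, 0.0714 and 0.0635). They were 2.40-fold below sgTrp53+MYC tumors (exact permutation test, p = 0.0159, adjusted p = 0.0476). FGF19+MYC and sgTrp53+MYC tumors overlapped (log2 difference -0.46, exact permutation test, p = 0.198, adjusted p = 0.238), although without sgTrp53+MYC replicate 2 the difference was -0.63 (exact permutation p = 0.0397). In sgTrp53+MYC tumors and livers the ratios were close in mean (-0.18, exact permutation test, p = 0.611, adjusted p = 0.643), and without sgTrp53+MYC replicate 1, whose ratio of 1.87 was the highest, the difference was -0.49 (exact permutation p = 0.00794).

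The Cdkn1a to Trp53 ratio was 0.947, 0.923, 1.11, 0.936 and 1.18 in FGF19+MYC replicates, a narrow range, and 0.490, 0.298, 1.07, 0.569 and 1.18 in Aldafermin+MYC replicates. In sgTrp53+MYC replicates it was 1.01, 0.235, 0.635, 0.451 and 0.672, and in livers 0.101, 0.0655, 0.0333, 0.536 and 0.232. All FGF19+MYC tumors were above all livers. FGF19+MYC tumors differed from livers (log2 difference 3.05, exact permutation test, p = 0.00794, adjusted p = 0.0317), as did Aldafermin+MYC (2.38, exact permutation test, p = 0.0238, adjusted p = 0.0476) and sgTrp53+MYC tumors (2.14, exact permutation test, p = 0.0317, adjusted p = 0.0476). The last was lost without any of sgTrp53+MYC replicates 1, 3 and 5 or livers 1, 2 and 3, at 1.67 to 2.08. Between FGF19+MYC and sgTrp53+MYC tumors the log2 difference was 0.91 (exact permutation test, p = 0.0317, adjusted p = 0.0476), lost without FGF19+MYC replicate 3 (0.88, exact permutation p = 0.0635) or 5 (0.85, exact permutation p = 0.0635). Aldafermin+MYC tumors did not differ beyond their spread from FGF19+MYC tumors (-0.67, exact permutation test, p = 0.135, adjusted p = 0.18). Without Aldafermin+MYC replicate 5 the difference was -0.89 (exact permutation p = 0.0317, not adjusted). From sgTrp53+MYC tumors they differed by 0.24 (exact permutation test, p = 0.643, adjusted p = 0.643).

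**Figure D5:**
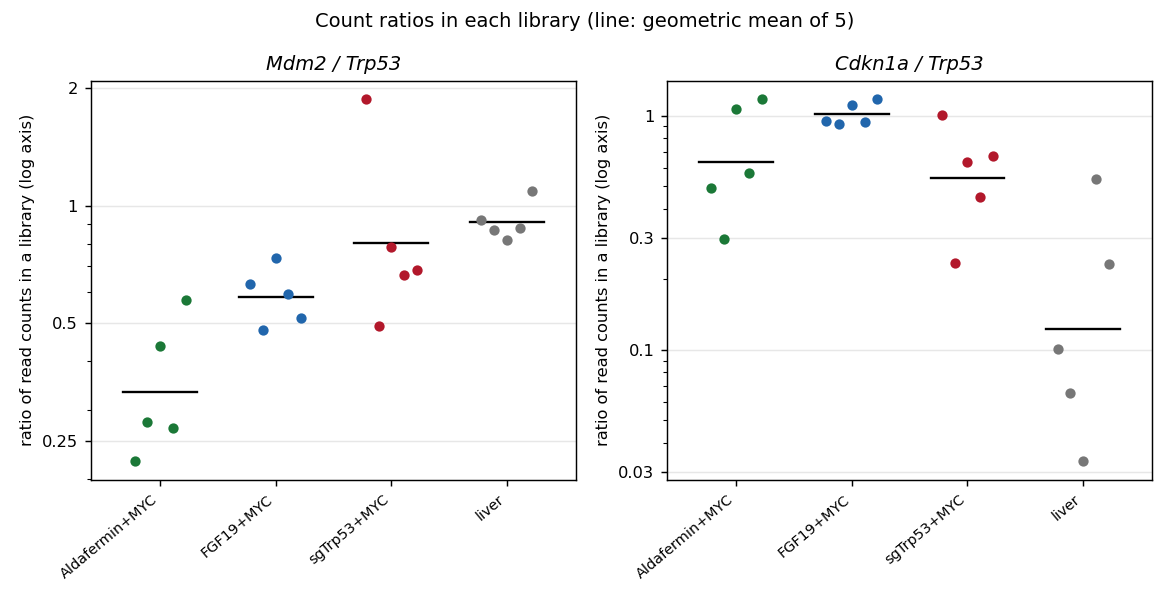
Ratio of Mdm2 (left) and Cdkn1a (right) counts to Trp53 counts in each library on a log axis, 5 points per group in replicate order with a line at the geometric mean. For Mdm2 the Aldafermin+MYC geometric mean is lowest, at 0.334, and for Cdkn1a the FGF19+MYC points cluster near 1.01.

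Per kilobase of exon, over all exons of a gene's GENCODE transcripts, Ccng1 was the most abundant member in both FGF groups. It had 26.0 CPM per kb in FGF19+MYC and 20.5 CPM per kb in Aldafermin+MYC tumors. Next came Cdkn1a in the former (23.5 CPM per kb) and Trp53 in the latter (18.7 CPM per kb). In sgTrp53+MYC tumors Ccng1 (7.57 CPM per kb) and Trp53 (6.34 CPM per kb) led. In livers Ccng1 (11.2 CPM per kb) was first and Zmat3 (0.769 CPM per kb) and Cdkn1a (0.999 CPM per kb) were lowest. These levels depend on that length, 4399 bases for Ccng1, 6045 for Cdkn1a and 7379 for Trp53, whereas reads were counted on the RefSeq annotation. In CPM, Trp53 (138) was above Ccng1 (90.2) in Aldafermin+MYC tumors. Cdkn1a (142) and Trp53 (139.5) were above Ccng1 (114) in FGF19+MYC tumors. The values do not settle which member had the most transcripts.

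Genes whose level ran most like that of 3 members were found by the root mean square (RMS) difference of log2 CPM over the 20 libraries, each gene centred on its mean. For Trp53 these were Gm4735 (0.36), Gm6180 (0.37) and Aen (0.41), a nuclease gene, where the median of all tested genes was 1.19. For Mdm2 they were Tmem43 (0.32), Gm15459 (0.33) and Bcdin3d (0.33), with a median of 0.88, and for Cdkn1a Actg2 (0.80), Gm14150 (0.89) and Ddias (0.89), with a median of 2.15. Aen had 49.7 ± 7.08 CPM in Aldafermin+MYC, 55.7 ± 5.77 CPM in FGF19+MYC, 25.3 ± 5.99 CPM in sgTrp53+MYC tumors and 14.2 ± 1.72 CPM in livers (SD, n = 5 each). Among the members, Zmat3 was nearest to Trp53 (0.48), and Ccng1 and Btg2 were the closest pair (0.41).

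Other genes of the pathway were counted in lists, in which the background shares for all genes are those given above for the members. Of 14 apoptosis targets of p53, 8 were higher and 0 lower in FGF19+MYC than in sgTrp53+MYC tumors, and 7 and 0 in Aldafermin+MYC tumors, among them the death receptor gene Eda2r, Aen and the effector Bax. Eda2r had 16.4 to 37.1 CPM in FGF19+MYC and 2.42 to 27.8 CPM in Aldafermin+MYC tumors, against 0.132 to 0.727 CPM in sgTrp53+MYC tumors (log2 fold changes 6.12, SE 0.68, adjusted p = 2.6e-05, and 4.90, SE 0.64, adjusted p = 8.39e-05). Bax was higher by 1.23 and 1.26 and Aen by 1.14 and 0.97, without overlap. Of 18 repair, metabolic and secreted targets, 4 were higher and 2 lower in FGF19+MYC, and 4 and 3 in Aldafermin+MYC tumors. Phlda3, an inhibitor of Akt, was higher by 2.79 and 2.28, the secreted factor Gdf15 by 2.01 and 1.41 and the adenylate kinase Ak1 by 2.22 and 2.14. The 2 lower genes were Ddb2 (-1.28 and -1.45), which recognises DNA damage, and Rrm2b (-1.08 and -1.27), a subunit of ribonucleotide reductase, joined in Aldafermin+MYC tumors by Xpc (-0.60).

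Of 13 upstream regulators of p53, 12 were tested (Cdkn2a was not), and 0 were higher and 2 lower in FGF19+MYC than in sgTrp53+MYC tumors, with 0 and 3 in Aldafermin+MYC tumors. Those lower in FGF19+MYC tumors were the ubiquitin ligase Cop1 (-0.42, adjusted p = 0.0232) and the damage kinase Atm (-0.54, adjusted p = 0.0362). The kinase Hipk2 had a value of 1.12 (adjusted p = 0.051) in FGF19+MYC tumors. In Aldafermin+MYC tumors the checkpoint kinase Chek1 was added to the lower genes (-0.52). Of 14 cell cycle genes downstream of p21, 1 was higher and 2 lower in FGF19+MYC, and 1 and 0 in Aldafermin+MYC than in sgTrp53+MYC tumors. Ccne1, encoding cyclin E1, was higher by 1.82 (adjusted p = 0.000657) and 2.11 (adjusted p = 0.000205), and Rb1 and Rbl1 were lower in FGF19+MYC tumors by 0.70 and 0.79. Relative to livers 12 of the 14 were higher in each of the 3 tumor groups. Between the FGF groups the quasi-likelihood test called 0 genes of these 4 lists and 0 of the paralogs, with unadjusted p under 0.05 for 3 apoptosis targets, 1 of the repair list, 0 regulators, 0 cell cycle genes and 2 paralogs.

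The paralogs of the members were called at shares near those of all tested genes. Of 13, 11 were tested and 1 was called in FGF19+MYC over sgTrp53+MYC tumors, where 15.8% of all tested genes were called in either direction. It was the polo-like kinase Plk3 (1.82, SE 0.37, adjusted p = 0.00292). In Aldafermin+MYC tumors, where 17.7% of all tested genes were called, Plk3 and the p57 gene Cdkn1c (1.04, SE 0.30, adjusted p = 0.0241) were called. Plk3 fell from 55.1 CPM in livers to 24.9 CPM in FGF19+MYC and 7.07 CPM in sgTrp53+MYC tumors. Cdkn1b, the p27 gene and nearest relative of Cdkn1a in the list, had 27.9 CPM in FGF19+MYC and 37.3 CPM in sgTrp53+MYC tumors (-0.42, adjusted p = 0.105). The third sestrin, Sesn3, had 5.29, 2.65, 4.23 and 10.02 CPM in Aldafermin+MYC, FGF19+MYC, sgTrp53+MYC tumors and livers. The p53 relatives Trp63 and Trp73 were not tested, with 8 and 91 reads in all 20 libraries.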

How the data were processed

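Raw read counts per gene symbol were deposited by the authors in a first table for Aldafermin+MYC, FGF19+MYC and liver and a second for sgTrp53+MYC, 20 libraries in all. Per the submitters' processing notes and the study's methods, reads were converted with bcl2fastq 2.20.0.422, aligned to mm39 with HISAT2 and counted with htseq-count on the RefSeq annotation. The strand setting of the counting is not given in the sources used here. The 5 summary lines of each table, holding 33.7% to 56.2% of the reads of a library, stayed out of library sizes and tests, and 0 columns were left unused. Library totals and the spread between 5 libraries limit the precision of each value.

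Both tables were joined by symbol. Genes that reached 1 CPM in 5 or more libraries were scaled by TMM and tested with edgeR 4.0.16 (limma 3.58.1, R 4.3.3) by the quasi-likelihood test in 1 model of 4 groups, for 6 comparisons, with Benjamini-Hochberg adjustment at 0.05. Each group held 5 tumors or livers from separate mice. No libraries of a group agreed within counting noise (lowest chi-square per degree of freedom 13.9). Count ratios were compared by exact permutation of libraries over 252 splits, adjusted over 12 tests. Their p-values with a library left out, or for medians, were not adjusted. Members and lists were chosen with earlier results of these data known. Beyond the members, the text names for each list the 3 genes with the smallest p between FGF19+MYC and sgTrp53+MYC, and the 3 genes most like Trp53, Mdm2 and Cdkn1a. Other named genes of the lists were chosen after their values were seen. Coordinates, exon lengths and sequences came from GENCODE M39 on GRCm39, in which all 10 members were found. Alternatives were DESeq2 1.42.0, a likelihood ratio test, other scalings, no filter, fewer groups, a replicate block, single libraries left out and, chosen after seeing the data, a correction for GC content and length. On counts simulated for Aldafermin+MYC against FGF19+MYC over 14333 genes, the test found 41 of 100 genes changed by 1 and 84 of 100 changed by 2 on the log2 scale, with 9 false calls.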

Additional observations from a re-analysis of the deposited data

Results flagged for a closer look

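Plk2 in sgTrp53+MYC replicate 3 was at 7.946 CPM, far from the other 4 libraries of its group, at 3.914 to 4.898 CPM. The gap to its nearest neighbour was 0.756 of the range of the group, above the critical value of 0.71 of Dixon's test for 5 values. It was the only such value among 48 sets of 5 libraries examined, where chance gives about 1 in 20. The flag depends on the scale. On log2 CPM, at 3 against 1.988 to 2.307 in the other libraries, the gap was below the critical value.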

How the results depend on the processing

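Over 19 alternatives, Trp53, Cdkn1a, Ccng1, Btg2 and Sesn2 kept their calls over sgTrp53+MYC tumors in both FGF groups, as did Mdm2, Zmat3, Plk2 and Sesn1 in FGF19+MYC tumors. Between the FGF groups the count of members called went from 0 to 1, Mdm2, with DESeq2, the likelihood ratio test and median ratio size factors (adjusted p = 2.54e-05, 0.000726 and 0.0486), and over all genes from 0 to 96, 59 and 2. When the model held just the compared groups, 5 in place of 9 members were called in Aldafermin+MYC over sgTrp53+MYC tumors, and 1076 in place of 2534 genes, with 1342 in place of 2258 in FGF19+MYC tumors; the cause was not tested. With library totals alone, Sesn1 reversed to 0.544 in Aldafermin+MYC and 0.465 in FGF19+MYC tumors over livers and Ccng1 to 0.317 in sgTrp53+MYC tumors. The median difference of the Cdkn1a to Trp53 ratio between FGF19+MYC and sgTrp53+MYC tumors was 0.575 (exact permutation p = 0.19).

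With single libraries left out, members called ranged from 0 to 1 between the FGF groups, 7 to 9 and 9 to 10 in Aldafermin+MYC and FGF19+MYC over sgTrp53+MYC tumors, 7 to 9 and 9 to 10 over livers, and 3 to 6 in sgTrp53+MYC tumors over livers, with 3 without liver replicate 5 or sgTrp53+MYC replicate 4. Over all tested genes, 0 to 29 were called between the FGF groups. In Aldafermin+MYC and FGF19+MYC tumors 1786 to 3011 and 1594 to 2613 genes were called over sgTrp53+MYC tumors. Over livers the genes called were 9461 to 9906 in Aldafermin+MYC, 9437 to 9723 in FGF19+MYC and 9473 to 10021 in sgTrp53+MYC tumors. The log2 difference of the Mdm2 to Trp53 ratio ranged from -1 to -0.657 between Aldafermin+MYC and FGF19+MYC, from -0.632 to -0.15 for FGF19+MYC over sgTrp53+MYC tumors and from -0.489 to -0.007 between sgTrp53+MYC tumors and livers. That of the Cdkn1a to Trp53 ratio ranged from -0.892 to -0.396, from 0.609 to 1.135 and from 1.671 to 2.673 in the same order.

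Replicate numbers belonged to different mice, and deviations of same-numbered libraries correlated between -0.333 and 0.333. That range cannot show whether libraries of the same number were handled together. With the replicate number as a block, 0, 7, 10, 7, 10 and 5 members were called (Aldafermin+MYC over FGF19+MYC, each over sgTrp53+MYC, each over liver, and sgTrp53+MYC over liver), and 0, 2267, 2080, 10036, 9942 and 9981 genes. Mdm2 (0.41, adjusted p = 0.0784) and Sesn1 (-0.42, adjusted p = 0.0663) of Aldafermin+MYC over sgTrp53+MYC tumors no longer passed under the block.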
